A study of Mus musculus with 2 samples.

Results

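The Hox genes described here are the 38 members of the 4 mouse Hox clusters that were listed by symbol, out of 21936 endogenous gene features and 39 features whose symbol starts with Hox. Their transcripts were counted in 5678 single cells of transgenic (Tg) mouse embryos at E11.5, and the unique molecular identifiers (UMIs, 1 for each captured transcript) of each gene were summed over the cells of each annotated cell type in each cell suspension. All embryos carried an EGFP transgene with a linked DNA barcode, driven by CAG, a promoter active in most tissues, and delivered with the piggyBac transposon. Single founder embryos (F0), injected as zygotes and possibly mosaic for the transgene, gave suspensions F0_8 and F0_9. A single F1 embryo gave F1_1, while F1_mix combined cells taken from 2 further F1 embryos into 1 mosaic sample. No sample without a transgene was analysed here, each suspension was prepared once, and all 4 were tagged, pooled and run as 1 droplet library. The 16 cell types are those of the deposited cell table.

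Hox genes encode homeodomain transcription factors that give cells a position along the head-to-tail axis. Genes at one end of each cluster, with low paralogue numbers, are used first and as far forward as the hindbrain, those in the middle mark the neck and trunk, and those at the other end mark the lumbar, sacral and tail levels and the outer segments of the limb. The forebrain and midbrain and much of the facial mesenchyme use no Hox gene, and Pbx and Meis proteins bind DNA together with Hox proteins.

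Wherever 4 values are listed they run F0_8, F0_9, F1_1, F1_mix. There were 1599, 1318, 1310 and 1451 cells with 16926, 16984, 14969 and 18976 Hox UMIs. The median depth per cell was 10880 to 13267 gene UMIs. No cell barcode was shared between suspensions. Levels are given in CPM, the UMIs of a gene per 1000000 gene UMIs of the same cells outside mitochondrial genes and EGFP. Because a UMI is counted once for each captured 3′ end, levels were not divided by gene length. Summed over all cells, the Hox level was 1001, 1090, 950 and 1019 CPM, so the suspensions differed little in their total. The Hoxb cluster (GRCm38 chr11:96194316-96368254) held 36.6% of all Hox UMIs, the Hoxa cluster (chr6:52162417-52260880) 29.3%, the Hoxc cluster (chr15:102921131-103036856) 22.0% and the Hoxd cluster (chr2:74668225-74765142) 12.1%. Every member was detected, from 107 UMIs of Hoxb13 to 4325 UMIs of Hoxb3. The least detected after Hoxb13 were Hoxa6 with 163 UMIs, Hoxd1 with 178 and Hoxc12 with 211. Gene models of Hoxa3 overlap those of Hoxa4, Hoxa5 and Hoxa6, and the models of Hoxb3 and Hoxb4, Hoxd3 and Hoxd4, and Hoxd10 and Hoxd11 also overlap, so the split of UMIs within these groups is uncertain.

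The promoters of the members were searched for the letters TGATNNAT, a composite site for a Pbx protein bound with a Hox protein, because Pbx genes are described too. RefSeq promoters on GRCm38.p6 were at hand for 22 members (24 promoters), and the 250 bases before the start site were read on both strands. A match was found in 4 of the 24 promoters, against 7.68% of all 32851 promoters. The 4 stretches are shown 5′ to 3′ on the strand of the gene, with the match in capitals.
Hoxa2, minus strand, chr6:52164924-52164953, match beginning 111 bases upstream: gacttttttggATCAATCAaacagacagtg
Hoxb1, plus strand, chr11:96365585-96365614, match beginning 162 bases upstream: tgattggggggTGATGGATgggcgctggga
Hoxb8, plus strand, chr11:96281883-96281912, match beginning 11 bases upstream: ataataaggaaATTGATCAttaaagcttta
Hoxd11, plus strand, chr2:74682239-74682268, match beginning 73 bases upstream: ttaccaccagaATCAATCAagatgaattgc
The letters TTTATG, a site for the Cdx proteins that act on Hox clusters, were found in 5 of the 24 promoters (Hoxa7, Hoxb8, Hoxd3, Hoxd4 and Hoxd11) and in 10.8% of all promoters. Hoxb8 and Hoxd11 therefore held matches to both motifs. Member promoters had a median of 14.5 CpG dinucleotides, against 7 in all promoters. These are letter matches in a window and were not set against binding data.

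Hox transcripts were most abundant in the differentiating nervous system and lowest in blood cells. The summed level was 2230, 2459, 2479 and 2403 CPM in CNS Neuron (pooled 2395) and 2387, 2297, 2077 and 2581 in Neuroectoderm/Glia (pooled 2354), and these neighbours overlapped in their 4 values. A second tier followed with overlapping values, namely Mesodermal Progenitor with 910 to 1092, Gut Mesenchyme/Amniotic Mesoderm with 692 to 1015, Neuronal Progenitor with 561 to 1051, Myoblast/Cardiomyocyte with 789 to 926, Chondrocyte with 553 to 845 and Ependymal Cell with 524 to 825 CPM. No suspension of these types reached the lowest value of CNS Neuron or Neuroectoderm/Glia. Epithelial Cell lay lower at 201 to 388 CPM, and Hematoendothelial Progenitor/Endothelium at 40.3 to 121. The cell types were defined by the authors from the expression of the same cells, so differences between types are descriptions and carry no test.

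Erythroid cells marked the floor of the measurement. Erythroblast held 17.3, 39.6, 21.6 and 7.89 CPM of Hox transcripts and Erythrocyte 4.22, 90, 9.85 and 6.10. The level expected from free RNA, estimated from Y-linked transcripts in the suspensions that nearly lacked them, was 14.2 to 23.9 CPM in these types and 13.1 to 22.0 in all deeply sequenced types. Erythrocyte of F0_9 stood above the rest with 46 of the 53 Hox UMIs of that type, and there the 4 neuronal markers Tubb3, Elavl3, Stmn2 and Map2 were at 45 CPM, against 4.06 to 13.1 in the other suspensions. Its part in the Hox level was not tested. The top members by pooled level were Hoxc4 (3.06 CPM), Hoxb3 (2.83) and Hoxa10 (1.88) in Erythroblast and Hoxb3 (5.83), Hoxb9 (5.18) and Hoxa9 (3.88) in Erythrocyte, all on 13 UMIs or fewer. In Endodermal Progenitor, Foregut, Hepatocyte and Midgut, whose cells had medians of 721.5 to 1674 gene UMIs, free RNA made up an estimated 12.7 to 24.4% of the UMIs. Their Hox levels of 650 to 1487 CPM are therefore given without reading them by cell type, and the gene-by-gene account covers the other 12 types.

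**Figure D1:**
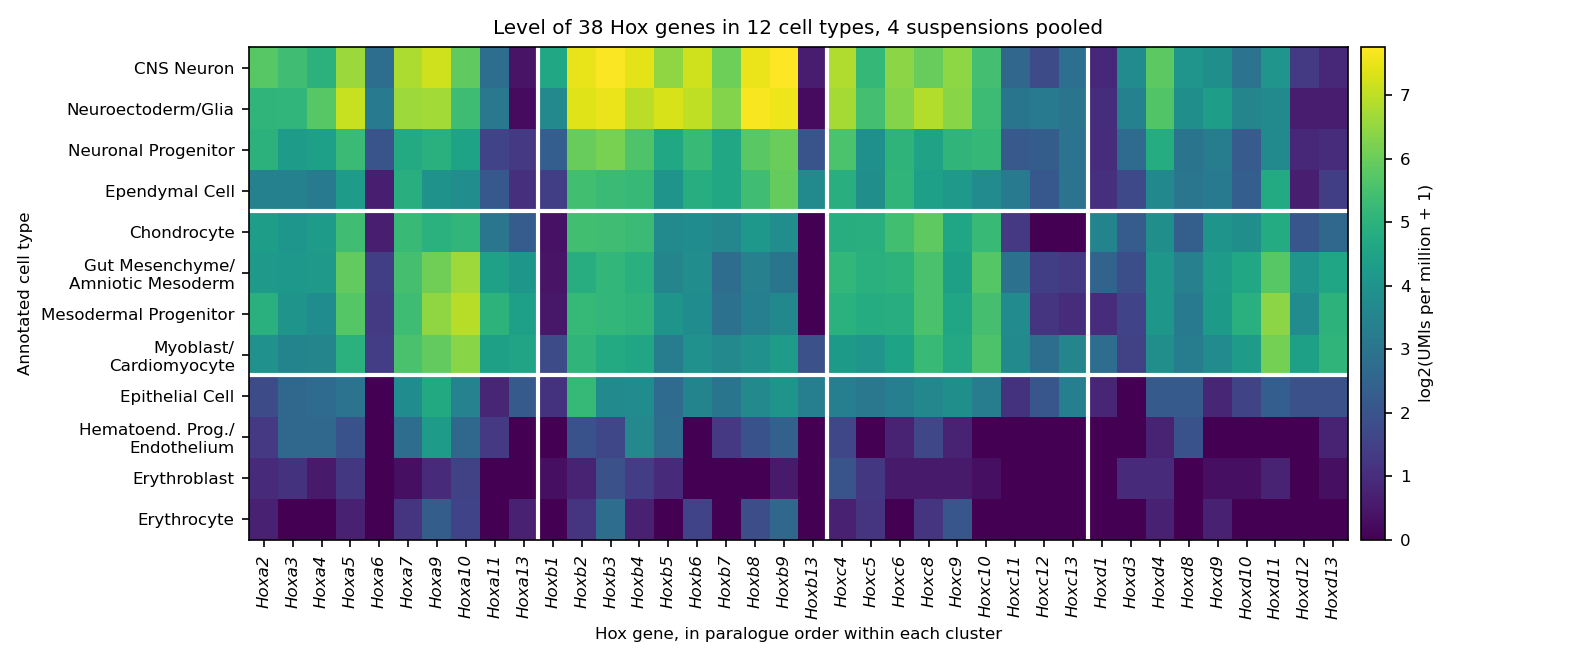
Heat map of the level of each of the 38 Hox genes (columns, in paralogue order within the Hoxa, Hoxb, Hoxc and Hoxd clusters) in 12 cell types (rows), as log2 of CPM plus 1 with the 4 suspensions pooled. White lines separate clusters and the neural, mesodermal and other types. Among the brightest cells are those of Hoxb2, Hoxb3, Hoxb8 and Hoxb9 in CNS Neuron and Neuroectoderm/Glia. Hoxa10, Hoxd11 and other genes of high paralogue number peak in the mesodermal rows.

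Anterior to posterior use set CNS Neuron and Neuroectoderm/Glia apart from Mesodermal Progenitor and Myoblast/Cardiomyocyte. Groups 1 to 4 are called anterior (11 members), groups 5 to 8 central (11 members) and groups 9 to 13 posterior (16 members). Posterior genes made up 25.4% of the Hox UMIs of CNS Neuron (27.8, 27.3, 22.0 and 24.3% in the 4 suspensions) and 22.3% of those of Neuroectoderm/Glia (26.8, 21.0, 15.0 and 22.2%). They made up 53.8% in Mesodermal Progenitor (61.0, 57.9, 45.4 and 52.4%) and 55.6% in Myoblast/Cardiomyocyte (64.8, 64.2, 44.0 and 57.5%). Within each suspension every one of these mesodermal shares exceeded both neural shares. Of the 38 members, 16 had their highest pooled level in CNS Neuron and 10 in Neuroectoderm/Glia. The remaining 12 were highest in Mesodermal Progenitor (Hoxa10, Hoxa11, Hoxc11, Hoxd10 and Hoxd11), Myoblast/Cardiomyocyte (Hoxa13, Hoxc13, Hoxd12 and Hoxd13), Gut Mesenchyme/Amniotic Mesoderm (Hoxc10), Ependymal Cell (Hoxb13) and Chondrocyte (Hoxd1), and all of these except Hoxd1 are posterior genes. Pooling weights the suspensions by their cells. With the 4 suspensions weighted equally the highest type was the same for 36 of the 38 members (Hoxc11 and Hoxd9 changed), but for only 11 was it the same in each suspension. Hoxc10 and Hoxb13 were highest in the type named here in 1 suspension each.

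The mean paralogue number, weighted by UMIs, put this on 1 scale. It was 5.96 ± 0.25 in CNS Neuron (SD over 4 suspensions), 6.03 ± 0.29 in Neuroectoderm/Glia and 6.03 ± 0.43 in Neuronal Progenitor. Chondrocyte at 6.41 ± 0.59, Ependymal Cell at 6.63 ± 0.63 and Epithelial Cell at 6.92 ± 1.47 lay between, and neighbours among these 6 types did not differ beyond their spread. Gut Mesenchyme/Amniotic Mesoderm reached 7.53 ± 0.88, Mesodermal Progenitor 7.79 ± 0.62 and Myoblast/Cardiomyocyte 8.10 ± 0.78. In F1_1 and F1_mix, Gut Mesenchyme/Amniotic Mesoderm was at 6.28 and 6.69, within the range of Neuronal Progenitor over all suspensions (5.67 to 6.71). Within the Hoxb cluster the neural types were above the mesodermal ones, with pooled values of 5.36 in CNS Neuron and 5.49 in Neuroectoderm/Glia. The mesodermal values there were 4.27 in Gut Mesenchyme/Amniotic Mesoderm, 4.29 in Mesodermal Progenitor, 4.41 in Chondrocyte and 4.97 in Myoblast/Cardiomyocyte. Within the Hoxd cluster the mean number was 6.33 in CNS Neuron and 10.2 in Mesodermal Progenitor, so these 2 types were farthest apart there.

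**Figure D2:**
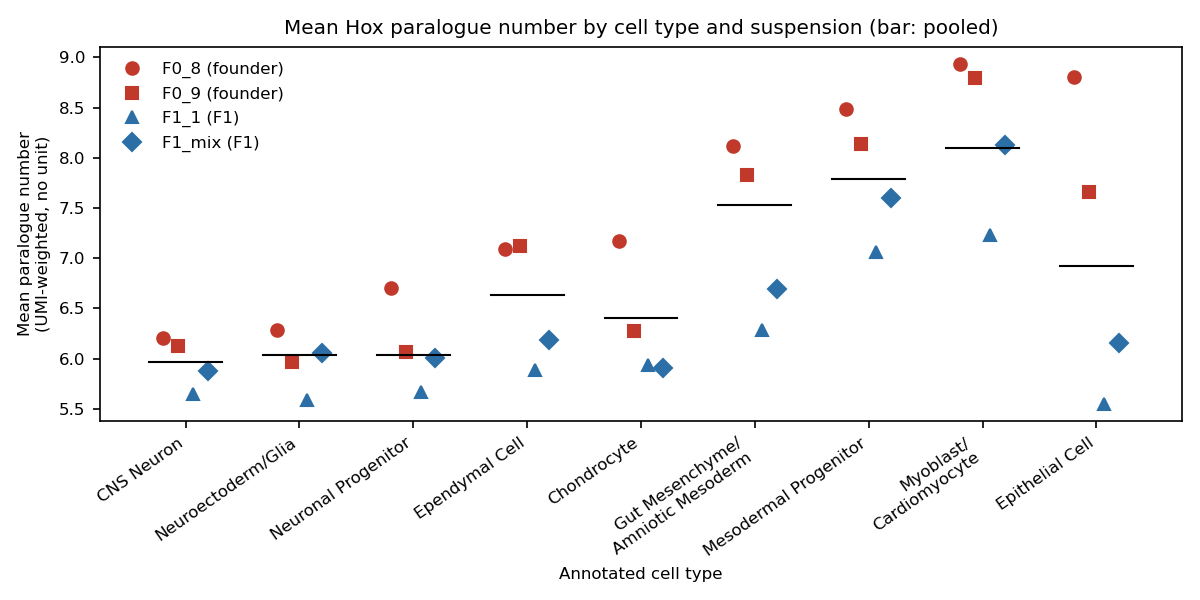
UMI-weighted mean paralogue number of all Hox UMIs (vertical axis, no unit, not starting at 0) in 9 cell types, with 1 symbol for each suspension (red, founders, blue, F1) and a bar for the pooled value. Pooled values run from 5.96 in CNS Neuron to 8.10 in Myoblast/Cardiomyocyte, and both founders lie above both F1 suspensions in 8 of the 9 types.

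The neural types were dominated by the Hoxb cluster, which held 53.9% of the Hox UMIs of CNS Neuron, 52.6% of those of Neuroectoderm/Glia, 48.7% in Ependymal Cell and 46.3% in Neuronal Progenitor, whereas the Hoxd cluster held 5.09, 4.96, 10.2 and 7.90% in the same order. In CNS Neuron, Hoxb9, a gene of the thoracic cord, was at 208, 230, 167 and 247 CPM. Hoxb3, used from the posterior hindbrain back, was at 189, 215, 222 and 213. Hoxb8, a trunk gene, was at 179, 205, 166 and 182. These genes overlapped in level on the UMI scale. In Neuroectoderm/Glia, which carried more of the neuronal markers than CNS Neuron did (8123 against 6494 CPM for the list), Hoxb8 was at 206, 195, 190 and 219 CPM. Hoxb9 was at 173, 176, 140 and 252 and Hoxb3 at 194, 177, 170 and 190. The same 3 genes thus had the highest pooled levels in both types.

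Hoxb1, which marks rhombomere 4 of the hindbrain in the early embryo, was at 15.3, 18.0, 44.7 and 19.9 CPM in CNS Neuron and at 6.07, 8.33, 16.6 and 19.4 in Neuroectoderm/Glia. F1_1 was the highest suspension in CNS Neuron, and the founders did not differ from F1 past the threshold in either type (adjusted p = 0.437 and 0.127, edgeR's quasi-likelihood test). The most posterior members with at least 3 UMIs in every suspension of CNS Neuron were Hoxa11 at 5.84, 6.83, 6.27 and 5.27 and Hoxd11 at 11.7, 22.3, 13.3 and 14.1 CPM. In Neuroectoderm/Glia they were of group 10, with Hoxc10, a lumbar motor neuron gene, at 70.0, 26.8, 19.7 and 27.6 CPM. F0_8 was the highest suspension for it.

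In Neuronal Progenitor the leading genes were Hoxb3 (48.5, 94.5, 76.2 and 70.0 CPM), Hoxb9 (33.0, 85.4, 65.0 and 72.0) and Hoxb2 (31.4, 72.3, 79.8 and 57.7). F0_8 was lowest for all 3, and in that suspension the 14 head and brain markers were at 814 CPM in this type, against 352 to 532 in the others. Hoxc13, of the last paralogue group, was at 9.59, 8.54, 4.04 and 5.73. In Ependymal Cell, which had Foxj1 at 48.0 CPM but whose choroid plexus transcript Ttr ranged from 2.11 to 3249, Hoxb9 was at 50.3, 97.4, 43.9 and 48.6, Hoxb2 at 23.1, 46.2, 58.5 and 40.1, and Hoxb8 at 44.0, 38.9, 48.7 and 31.7. Hoxa10 was the most posterior member with 3 UMIs throughout, at 16.8, 12.2, 7.31 and 14.8. Hoxb13, a gene of the tail bud, was at 27.3 and 19.5 CPM in the founders and listed at 0 in both F1 suspensions of this type.

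The mesodermal types used the Hoxa and Hoxd clusters more. Hoxa held 40.4% of the Hox UMIs of Gut Mesenchyme/Amniotic Mesoderm, 41.8% of those of Mesodermal Progenitor and 35.7% of those of Myoblast/Cardiomyocyte, and Hoxd held 18.9, 20.5 and 22.2%. Hoxb held 15.6, 16.1 and 18.8%. Hoxa10, a gene of the lumbar level and the proximal limb, had the highest pooled level in all 3 types, but Hoxa5 exceeded it in both F1 suspensions of Gut Mesenchyme/Amniotic Mesoderm and Hoxd11 in F0_8 of Myoblast/Cardiomyocyte. It was at 136, 112, 54.0 and 52.9 CPM in Gut Mesenchyme/Amniotic Mesoderm, at 151, 150, 91.1 and 109 in Mesodermal Progenitor and at 96.1, 104.3, 62.3 and 83.8 in Myoblast/Cardiomyocyte. Both founders were above both F1 suspensions in each type. Hoxa9, its neighbour in the cluster, was at 82.4, 73.1, 52.5 and 47.6 in the first type, at 92.6, 114, 88.0 and 68.8 in the second and at 40, 69.6, 61.3 and 59.5 in the third, where the generations overlapped.

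Genes of the limb followed. Hoxd11, which with Hoxa11 shapes the forearm, was at 92.2, 113, 49.0 and 90.3 CPM in Mesodermal Progenitor and at 108, 76.8, 51.6 and 68.8 in Myoblast/Cardiomyocyte. Hoxa13, needed for the hand and foot plate and the hindgut, was at 25.5, 26.8, 9.34 and 20.4 and at 29.2, 35.7, 11.5 and 22.2 in these types. Hoxd13, its partner in the digits, was at 54.9, 55.1, 11 and 33.8 in Myoblast/Cardiomyocyte. F1_1 was the lowest suspension for each of these genes. Hoxa5, used in the foregut mesenchyme and lung, came next in Gut Mesenchyme/Amniotic Mesoderm at 52.0, 58.0, 56.9 and 69.5, without a split by generation. The 10 limb markers, such as Tbx4, Tbx5 and Prrx1, were at 912 CPM in that type, 1101 in Mesodermal Progenitor and 797 in Myoblast/Cardiomyocyte. Skeletal muscle markers in Myoblast/Cardiomyocyte were at 731 CPM in F0_8 and 176 to 314 in the others, and cardiac markers at 124 and 15.2 to 19.8.

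Chondrocyte, Epithelial Cell and Hematoendothelial Progenitor/Endothelium are given by their leading members. Chondrocyte had its 4 cartilage markers at 536 CPM, below the 688 of Gut Mesenchyme/Amniotic Mesoderm, with Acan at 4.68. Among its leading members were Hoxc8 at 72.0, 23.5, 63.2 and 68.5 CPM, Hoxc6 at 50.2, 22.4, 29.0 and 65.0 and Hoxb2 at 22.9, 45.8, 42.2 and 56.7. F0_9 was lowest for both Hoxc genes, and Hoxd11 was at 42.5, 33.5, 21.1 and 5.91 CPM. In Epithelial Cell, Hoxb2 was at 14.5, 28.6, 46.7 and 42.2, lower in both founders, while Hoxa9 (66.1, 14.3, 14.8 and 16.9), Hoxb9 (31.0, 5.37, 4.56 and 27.0) and Hoxb13 (41.3, 1.79, 0 and 3.38) were highest in F0_8. Hoxa10 there was at 14.5, 8.95, 3.42 and 16.9. In Hematoendothelial Progenitor/Endothelium macrophage markers were at 2255 and endothelial markers at 611 CPM, so the type carried markers of both kinds of cell. There Hoxa9, a gene of early blood cells and vessels, was at 40.4, 20.8, 10.7 and 0 CPM, Hoxb4 at 6.73, 4.16, 17.8 and 21.7, and Hoxa7 at 0, 8.31, 14.2 and 0. These values rest on 25, 16 and 8 UMIs, in a type whose summed Hox level lay above the 13.1 to 22.0 CPM estimated for free RNA in all 4 suspensions.

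The types with the highest Hox level did not have the highest share of cells with a Hox UMI. With each cell thinned to 5000 UMIs, any Hox UMI was found in 62.7% of CNS Neuron cells (exact 95% interval 58.4 to 66.9), in 57.3% of Neuroectoderm/Glia (52.7 to 61.7) and in 41.2% of Neuronal Progenitor (37.1 to 45.3). It was found in 70.5% of Gut Mesenchyme/Amniotic Mesoderm (66.9 to 73.9), 71.1% of Mesodermal Progenitor (66.9 to 75.1) and 66.1% of Myoblast/Cardiomyocyte (62.3 to 69.8). Erythroblast, which should lack Hox transcripts, gave 4.93% (2.0 to 9.89) at the same depth. A posterior UMI was found in 33.8% of CNS Neuron cells and in 45 to 45.7% of the cells of these 3 mesodermal types. Intervals and limits cover counting error only.

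Most neural cells with a posterior transcript carried an anterior one as well, while fewer than 1 in 2 such cells of Gut Mesenchyme/Amniotic Mesoderm, Mesodermal Progenitor and Myoblast/Cardiomyocyte did. In CNS Neuron, an anterior UMI was found in 100, 92.6, 91.2 and 92.3% of the cells with a posterior UMI and in 27.9, 41.5, 51.4 and 41.6% of the other cells. In Neuronal Progenitor the values were 83.9, 91.2, 97.0 and 91.9% against 10.0, 22.2, 30.4 and 18.6%, and in Neuroectoderm/Glia 97.8, 92.5, 90 and 90.2% against 30.7, 46.2, 38.6 and 34.8%. In every suspension of these 3 types the cells with a posterior UMI were above the others. In Gut Mesenchyme/Amniotic Mesoderm the shares were 37.0, 40.2, 45.8 and 36.2% with a posterior UMI and 33.1, 39.0, 44.4 and 50.5% without, and in Mesodermal Progenitor they were 32.4, 34.6, 40.4 and 47.5% against 25.8, 52.3, 39.5 and 52.4%. There the order of the groups changed between suspensions. Cells without any Hox UMI count among the others. These shares are descriptions with no test, and both sets of genes come from the same thinned cell.

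**Figure D3:**
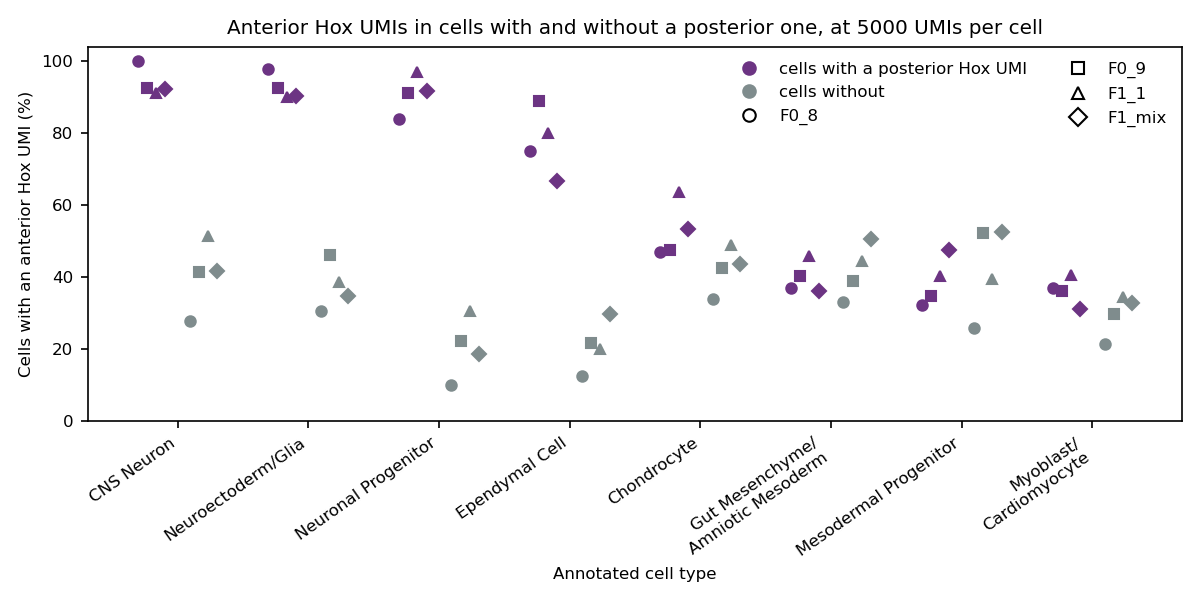
Share of cells with an anterior Hox UMI (vertical axis, percent) among cells with a posterior Hox UMI (purple) and among the other cells (grey) in 8 cell types, with 1 symbol for each suspension and every cell thinned to 5000 UMIs. The purple symbols of CNS Neuron, Neuroectoderm/Glia and Neuronal Progenitor lie between 83.9 and 100%, far above the grey ones, and the colours mix in Gut Mesenchyme/Amniotic Mesoderm and Mesodermal Progenitor.

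Cells with no Hox UMI carried more of the summed head and brain markers in every suspension of 8 of the 9 types examined. In Chondrocyte they did so in the founders only, with 247, 199, 130 and 158 CPM without a Hox UMI and 78.3, 45.5, 141 and 189 with one. In CNS Neuron the 14 head and brain markers summed to 930, 775, 651 and 819 CPM in the 192 cells without a Hox UMI and to 192, 194, 210 and 185 in the 323 cells with one. Otx2, a forebrain and midbrain factor, was at 82.5 CPM without and 7.62 with. En1, a midbrain and interneuron factor, was at 16.03, 14.1, 27.7 and 17.3 without and 36.1, 25.3, 10.4 and 36.8 with a Hox UMI, so that F1_1 differed in direction from the others. In Neuronal Progenitor the list was at 1034, 931, 613 and 588 CPM without a Hox UMI and at 297, 117, 61.9 and 77.1 with one. In the mesoderm Alx1, a factor of the facial mesenchyme, was at 189, 235, 124 and 203 CPM in the Gut Mesenchyme/Amniotic Mesoderm cells without a Hox UMI and 34.2, 26.2, 14.4 and 37.2 in those with one. It was at 188 and 16.3 in Mesodermal Progenitor and at 162 and 16.3 in Myoblast/Cardiomyocyte. Other genes of the list went the other way in these types, such as Lhx2, which the limb bud also uses, at 1.14 without and 23.0 with a Hox UMI in Gut Mesenchyme/Amniotic Mesoderm, at 2.53 and 27.1 in Mesodermal Progenitor and at 7.21 and 47.7 in Myoblast/Cardiomyocyte. En1 was at 2.17 and 22.2 in Mesodermal Progenitor and at 3.09 and 13.4 in Myoblast/Cardiomyocyte. Alx1, Lhx2 and En1 were picked after their values were seen. The ranges over suspensions did not overlap for the lists of both neural types or for Alx1 in Gut Mesenchyme/Amniotic Mesoderm. The absence of a UMI at this depth does not show that a cell lacked Hox transcripts.

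Founders and F1 were compared over 4 suspensions, with 2 in each generation. The founders used Hox genes of higher paralogue number. The mean paralogue number was higher in both founders than in both F1 suspensions in 8 of the 9 deeply sequenced types with 717 or more Hox UMIs, by 0.40 in CNS Neuron, 0.55 in Neuronal Progenitor, 0.98 in Mesodermal Progenitor, 1.18 in Myoblast/Cardiomyocyte, 1.48 in Gut Mesenchyme/Amniotic Mesoderm and 2.38 in Epithelial Cell. Neuroectoderm/Glia overlapped. The types share the same embryos and are not independent, and 2 against 2 suspensions allow no exact permutation p under 0.333. In Gut Mesenchyme/Amniotic Mesoderm the posterior level was 549, 512, 214 and 277 CPM while the anterior level was 167, 197, 234 and 231, so the generations separated in opposite directions at the 2 ends of the clusters. In CNS Neuron the posterior level was 619, 672, 546 and 584 and the anterior level 732, 882, 1039 and 923.

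The share of cells with a UMI of paralogue groups 12 and 13 was higher in both founders than in both F1 suspensions in 7 of 9 types. At 5000 UMIs per cell a UMI of these groups was found in 35.4, 27.8, 7.21 and 11.5% of Myoblast/Cardiomyocyte cells. It was found in 16.6, 17.8, 1.04 and 5.56% of Gut Mesenchyme/Amniotic Mesoderm and in 14.6, 18.8, 1.56 and 8.51% of Mesodermal Progenitor. In Epithelial Cell the shares were 17.9, 11.8, 1.89 and 5.71%. F1_1 was the lowest suspension in all 4 types, and the founders did not overlap with F1. The shares were lower but also did not overlap in Neuronal Progenitor (5.67, 5.26, 2.70 and 2.41%), in CNS Neuron (3.33, 4.73, 0 and 1.42%, where the 0 allows up to 2.83%) and in Chondrocyte (3.53, 3.66, 0 and 1.43%, where the 0 allows up to 5.36%). At 2000 UMIs per cell the split held in 6 of the 9 types and not in Chondrocyte, where F1_1 was then the highest suspension (3.57%) and the founders were at 1.14 and 2.44%. At 5000 UMIs the generations overlapped in Neuroectoderm/Glia (3.14, 1.37, 2.60 and 0%, where the 0 allows up to 2.80%) and in Ependymal Cell (10.0, 3.12, 3.33 and 3.03%). In Erythroblast, which should lack these transcripts, 1 of 142 cells had one (0.704%, exact 95% interval 0.0178 to 3.86). Median depths before thinning were 10898.5 gene UMIs per cell in CNS Neuron, 18369 in Myoblast/Cardiomyocyte and 29076 in Erythroblast.

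**Figure D4:**
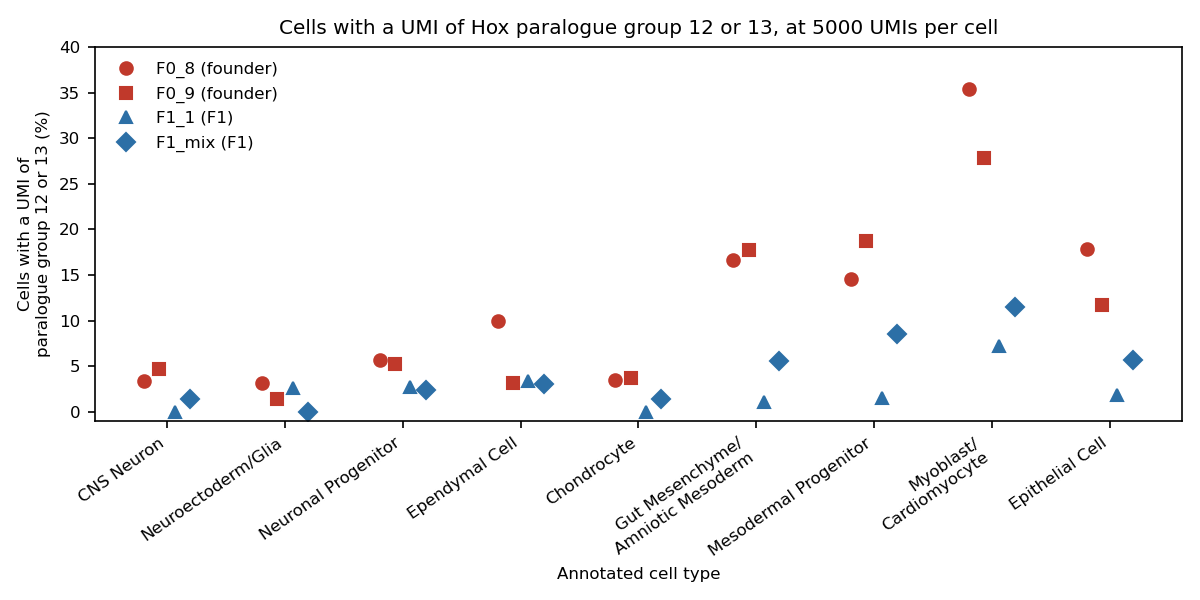
Share of cells with a UMI of Hox paralogue group 12 or 13 (vertical axis, percent) in 9 cell types at 5000 UMIs per cell, with 1 symbol for each suspension (red, founders, blue, F1). In Myoblast/Cardiomyocyte the founders are at 35.4 and 27.8% and the F1 suspensions at 7.21 and 11.5%, and in the neural types no value exceeds 10%, that of F0_8 in Ependymal Cell.

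A test gene by gene, edgeR's quasi-likelihood test with Benjamini-Hochberg adjustment over all genes of a type, called 12 of 237 pairs of a member and a cell type (5.06%), against 0.763% of all 98937 pairs of a gene and a type. All 12 were higher in founders. They concerned 8 genes, 11 of the 12 pairs were of posterior genes, and 11 were of the Hoxa or Hoxd cluster. At an unadjusted p under 0.05 there were 73 pairs, 39 higher and 34 lower in founders, against 10.2% of all pairs. Of the 237 pairs, 7 reached the filter on low counts in the founders alone and 4 in F1 alone, so that their direction was fixed by the filter. Of the 12 calls, 1 was of this kind, Hoxd10 in Chondrocyte. Among the other 226 pairs, the unadjusted limit was passed by 27 posterior pairs that were higher and 2 that were lower, by 4 and 7 central pairs and by 1 and 21 anterior pairs. Without the filter there were 29 higher and 11 lower calls among 451 pairs, against 1.68% of all pairs. Pairs share genes and embryos and are not independent. DESeq2 called 6 pairs, 4 of them among the 12, against 0.437% of all pairs.

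Gut Mesenchyme/Amniotic Mesoderm gave 7 of the 12 calls, 7 of 32 members tested against 1.7% of all genes there, and all 7 were genes of the far end of Hoxa and Hoxd. Hoxa10 (values above) was higher by 1.21 ± 0.14 on the log2 scale (SE, adjusted p = 0.00224). Hoxd13 was at 35.1, 33.3, 0.739 and 6.80 CPM (2.95 ± 0.41, adjusted p = 0.00671), the founders lying far above both F1 suspensions. Hoxd11 was at 66.1, 78.1, 16.3 and 29.6 (1.56 ± 0.22, adjusted p = 0.00755). Hoxa11 was at 26.6, 28.8, 8.87 and 10.2 (1.49 ± 0.24, adjusted p = 0.0127). Hoxd12, a gene of the distal limb, was at 18.2, 27.9, 2.96 and 6.80 (2.08 ± 0.39, adjusted p = 0.0289). Hoxa13 was at 25.4, 22.4, 0 and 6.31 (2.64 ± 0.53, adjusted p = 0.0402). Hoxd10 was at 27.0, 34.2, 14 and 14.1 (1.08 ± 0.23, adjusted p = 0.0476). The generations did not overlap in these 7, but the genes were chosen by a test on the same values, so this adds no support. Hoxa9 came next (0.63, adjusted p = 0.0596), and among the members not called the anterior Hoxb2 (-0.65) and Hoxb4 (-0.70) had adjusted p of 0.146 and 0.161.

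Mesodermal Progenitor gave 3 calls among 31 members, against 1.07% of all genes. Hoxd13 was at 51.0, 53.1, 8.17 and 22.6 CPM (1.73 ± 0.29, adjusted p = 0.00895), and Hoxa10 differed by 0.58 ± 0.11 (adjusted p = 0.0212). Hoxc8, the only central gene called, was at 78.7, 47.4, 35 and 26.9 (1.04 ± 0.21, adjusted p = 0.0302). Its high value came from F0_8. In Chondrocyte, 1 of 23 members was called against 1.19% of all genes, namely Hoxd10 at 27.3, 19.0, 2.64 and 2.36 CPM (3.14 ± 0.57, adjusted p = 0.0184). It had 25, 17, 2 and 2 UMIs, passed the filter on low counts through the founders, and was not called without that filter (adjusted p = 0.400). In Neuroectoderm/Glia, 1 of 32 was called against 1.13%, namely Hoxa10 at 59.5, 48.8, 14.5 and 21.6 (1.54 ± 0.24, adjusted p = 0.0318). Hoxa10 was thus called in 3 types.

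No member was called in the other 8 types with a member tested, at backgrounds of 0.808% in CNS Neuron (30 members), 0.657% in Neuronal Progenitor (29), 0.0134% in Ependymal Cell (12), 0.0% in Epithelial Cell (2), 1.59% in Foregut (2), 0.051% in Hepatocyte (8), 1.91% in Midgut (2) and 0.0% in Myoblast/Cardiomyocyte (34). At an unadjusted p under 0.05, 10 members passed in CNS Neuron against 9.18% of all genes, 14 in Myoblast/Cardiomyocyte against 9.32%, 4 in Neuronal Progenitor against 12.7%, 2 in Foregut against 10.8% and 1 in Epithelial Cell against 6.67%. Of these, Hoxc13 in CNS Neuron, Hoxc12 and Hoxc13 in Myoblast/Cardiomyocyte and Hoxc12 in Neuronal Progenitor reached the filter in the founders alone. Hoxb1 in Neuronal Progenitor and Hoxb3 and Hoxb6 in Foregut reached it in F1 alone, so the filter fixed the direction of each. None passed in Ependymal Cell, Hepatocyte and Midgut, against 6.93, 8.68 and 9.48%. In Myoblast/Cardiomyocyte, Hoxc13 was at 44.6, 17.9, 0.748 and 2.10 CPM (4.37 ± 0.59, adjusted p = 0.114), a member that reached the filter on low counts in the founders alone, and Hoxd13 differed by 1.28 (adjusted p = 0.421). The contrast of the founder effect between the 4 neural and the 4 mesodermal types called 0 of 38 members by edgeR, against 0.36% of 12772 genes, and 4 passed an unadjusted p under 0.05, against 10.0%. For 8 members it could not be estimated, because both suspensions of a generation had no UMI in at least 1 of these types (Hoxa6, Hoxa13, Hoxb1, Hoxb13, Hoxc12, Hoxc13, Hoxd1 and Hoxd12). The count of 0 therefore concerns the other 30, whose SEs reached 0.88. For Hoxd13 the log2 difference was -2.19 (adjusted p = 0.378).

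**Figure D5:**
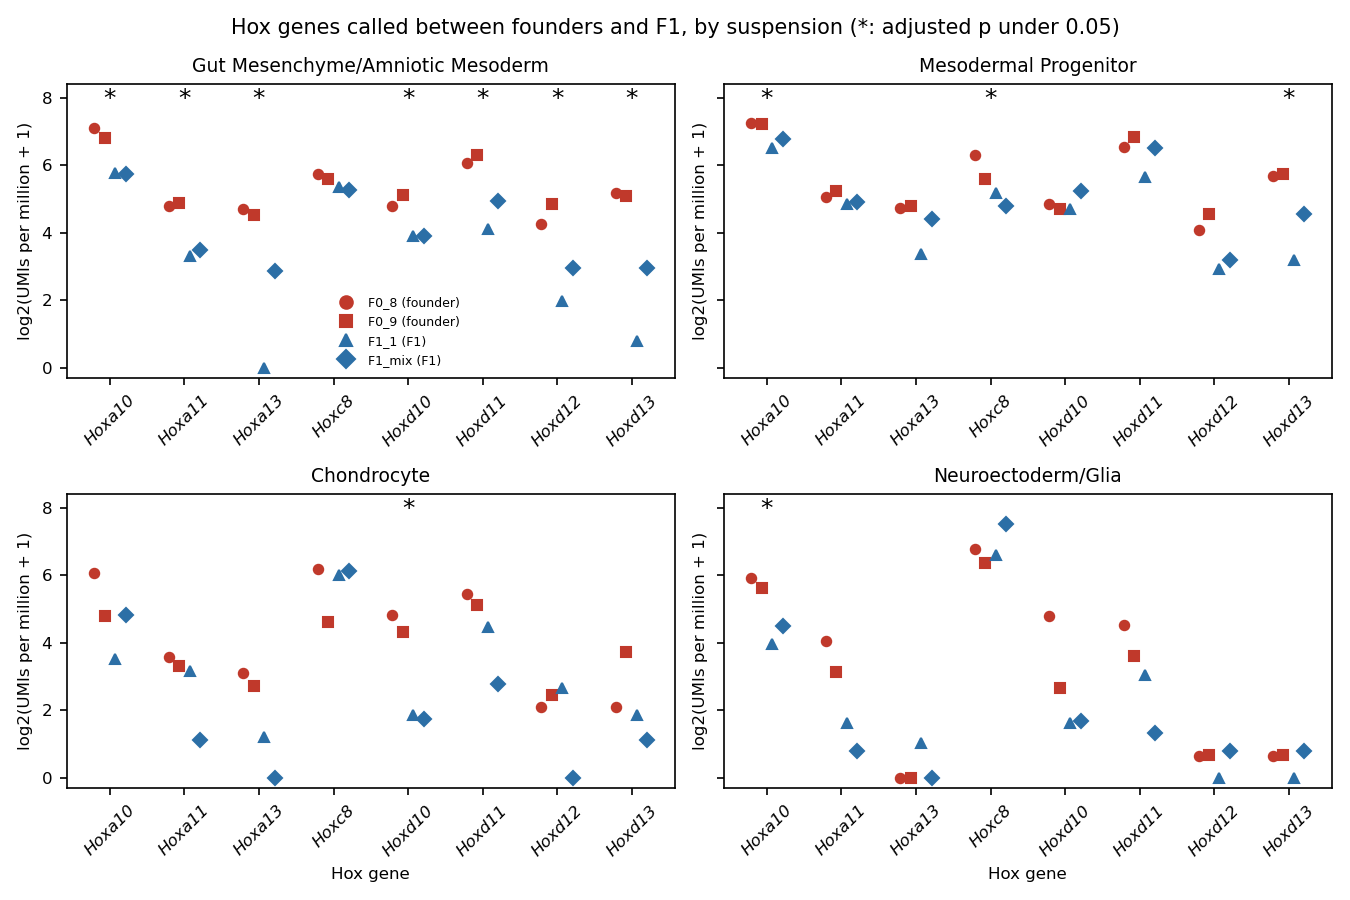
Level of the 8 called Hox genes in each suspension (vertical axis, log2 of CPM plus 1, red, founders, blue, F1) in the 4 cell types with a call, where an asterisk marks an adjusted p under 0.05. In Gut Mesenchyme/Amniotic Mesoderm both founders lie above both F1 suspensions for the 7 genes marked, from Hoxa10 at 136 and 112 against 54.0 and 52.9 CPM to Hoxd13 at 35.1 and 33.3 against 0.739 and 6.80.

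In Gut Mesenchyme/Amniotic Mesoderm, 35.5, 28.4, 12.5 and 12.5% of cells had a Hoxa10 UMI at 5000 UMIs, and the level in the cells with a UMI of it was 321, 301, 288 and 224 CPM. For Hoxd11 the shares were 18.1, 19.5, 5.21 and 6.94% and the levels 289, 345, 244 and 326. The shares separated the generations, and the Hoxd11 levels overlapped. In Neuroectoderm/Glia, where Hoxa10 was also called, it was the shares that overlapped (7.55, 5.48, 2.60 and 6.54%), while the levels in cells with a UMI did not (408, 466, 241 and 264 CPM). Those levels rest on 20, 13, 3 and 8 cells, counted without thinning, while shares are at 5000 UMIs. Embryo and generation cannot be told apart with these suspensions. Some limb markers were called higher in founders, and none lower. In Gut Mesenchyme/Amniotic Mesoderm they were Lhx9 (0.98, adjusted p = 0.0453) and Lmx1b (1.28, adjusted p = 0.0117). In Mesodermal Progenitor they were Pitx1 (1.08, adjusted p = 0.0113) and Shox2 (0.67, adjusted p = 0.00938). These were 2 of 10 markers tested in each type, where 1.7 and 1.07% of all genes were called. In CNS Neuron, where no Hox member was called, Shox2 was called too, 1 of 5 tested, against 0.808% of all genes. The summed limb list ranged over 935 to 1016 CPM in founders and 724 to 851 in F1 in Gut Mesenchyme/Amniotic Mesoderm. In Mesodermal Progenitor it ranged over 1183 to 1194 against 998 to 1069. The part of limb cells in the Hox differences was not tested.

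The calls rest on few suspensions. Without F0_8 the number of calls was 4, against 0.525% of all pairs, and without F0_9 it was 23 (16 higher and 7 lower in founders), against 1.59%. All 12 calls kept their direction in all 10 alternatives, but only Hoxa10 in Gut Mesenchyme/Amniotic Mesoderm passed the threshold in all 10, with a log2 difference of 1.05 to 1.33 as each suspension was left out. In the same type the log2 difference of Hoxd13 then ran from 2.31 without F1_1 to 5.41 without F1_mix, that of Hoxd12 from 1.71 to 2.88 and that of Hoxa13 from 1.91 to 8.75 in the same order, the last being set against F1_1 at 0 and therefore no bound. Hoxd10 passed in none of the 4 fits with a suspension left out. In Mesodermal Progenitor the log2 difference of Hoxd13 ran from 1.20 without F1_1 to 2.64 without F1_mix, and that of Hoxc8 from 0.62 without F0_8 to 1.33 without F0_9.

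Some Hox cofactors were lower in founders in the types with most Hox calls. Of the 9 cofactor genes, 0 were higher and 3 lower in Gut Mesenchyme/Amniotic Mesoderm, where 1.7% of all genes were called and 68 of 11085 were lower. Among the lower ones Pbx3, a partner of Hox proteins, was at 203, 210, 387 and 290 CPM (-0.72, adjusted p = 0.0180) and Meis1 at 402, 372, 486 and 546 (-0.44, adjusted p = 0.0169). In Mesodermal Progenitor, where 1.07% of all genes were called and 38 of 10914 were lower, 0 were higher and 4 lower, among them Pbx3 (284, 228, 352 and 352 CPM, -0.46, adjusted p = 0.0302), Meis1 (262, 303, 355 and 405, -0.44, adjusted p = 0.0358) and Meis2 (635, 608, 830 and 807, -0.41, adjusted p = 0.00749). Both founders were below both F1 suspensions wherever values are given here, but these genes were chosen by the test on the same values. No cofactor was called in the other types. Meis1 and Meis2 are used in the proximal limb, away from the hand plate where groups 12 and 13 are on.

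Of 15 genes that act upstream of the Hox clusters, 0 to 11 could be tested in a type, and the called ones were Rarb and Cyp26a1. Rarb, a retinoic acid receptor and target, was lower in founders in Gut Mesenchyme/Amniotic Mesoderm (126, 102, 166 and 167 CPM, -0.55, adjusted p = 0.0402), and also in Foregut (-1.72, adjusted p = 0.0364) and Midgut (-1.60, adjusted p = 0.0229), which hold much free RNA. Cyp26a1, which breaks retinoic acid down, was at 2.68, 4.0, 17.5 and 11.5 CPM in Mesodermal Progenitor (-2.13, adjusted p = 0.0241). No gene of this list was called higher in any of the 13 types.

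The genes whose level followed the summed Hox sets most closely over 48 profiles (12 types in 4 suspensions) were chosen among 11996 genes with 200 or more UMIs by Pearson's r of log2 of CPM plus 10. For the anterior set they were Lrp3 (r = 0.955), Fsd1, Ncam1, Rbm4b and Ank2 (0.946). For the central set they were Rbm4b (0.962), Ncam1, Chn1, Ptprs and Basp1 (0.952). For the posterior set they were Zfp423 (0.926), Auts2, Hdgfl3, 5730522E02Rik and Rbfox2 (0.917). The profiles share the embryos, the library and the low values of blood cells, so r is given as a description without a p.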

How the data were processed

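Cells of 4 E11.5 suspensions were tagged with CellPlex oligos, pooled and captured with a 3′ droplet kit. Per the file headers the authors used Cell Ranger 7.2.0, with GRCm38 as reference plus EGFP, and deposited UMI counts as uncorrected whole numbers, with a cell table giving suspension and cell type. They ran SoupX, DoubletFinder and RECODE before annotation, which the deposited counts do not carry. Doublets were not called again, and 20 other columns of the cell table were not used.

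Members and gene lists were chosen with earlier results of these data known. Suspensions were grouped by generation from the series description. With each suspension prepared once, p-values measure the spread between these embryos and the F1 mixture.

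Counts were summed per cell type and suspension, without mitochondrial genes, EGFP and oligos. Types with 20 or more cells in every suspension (13) were tested with edgeR 4.0.16 (limma 3.58.1, R 4.3.3), TMM scaling, filterByExpr and Benjamini-Hochberg adjustment at 0.05. The test was tested on simulated data. DESeq2 1.42.0, other scalings and filters and leaving out each suspension were alternatives. Levels carry exact Poisson and shares exact Clopper-Pearson 95% intervals. Thinning drew 5000 UMIs per cell and left out shallower cells. Free RNA came from 4 Y-linked genes in F0_9 and F1_1, set against droplets outside the suspensions. Named genes were all called members, the top 3 members of each deep type, the most posterior member with 3 UMIs in every suspension, and called genes of the cofactor and regulator lists. Hoxb1, Hoxb13 in Ependymal Cell and Epithelial Cell, and the members near the threshold were named after their values were seen. The values of some listed genes are not reported here. Python 3.11.15, numpy 2.4.6, pandas 2.3.3, scipy 1.17.1 and matplotlib 3.10.9 were used. The genome at hand was of another build, so coordinates and promoters come from RefSeq tables on GRCm38.p6.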

Additional observations from a re-analysis of the deposited data

Results flagged for a closer look

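Hox transcripts were also present in droplets outside the suspensions. In 53828 droplets assigned to none of the suspensions and holding 100 to 300 gene UMIs there were 1143 CPM of Hox transcripts, against 950 to 1090 in the cells of the suspensions, and droplets of fewer UMIs held 1002 CPM. This signal lies outside the comparisons between suspensions and has no control sample. With 2 suspensions in each generation, no group was large enough to test for a sample that stands apart.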

How the results depend on the processing

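The 12 calls between founders and F1 became 6 with DESeq2 (4 of them among the 12) and 40 without a filter on low counts (29 higher and 11 lower, 11 of the 12 among them, Hoxd10 in Chondrocyte being lost at an adjusted p of 0.400). They ranged from 4 without F0_8 to 23 without F0_9 as each suspension was left out, and a lone suspension was then assumed to vary like the other generation. DESeq2 scaling, mitochondrial genes kept, cells of 5000 or more UMIs and types of 10 or more cells gave 12 to 13 calls. The cause of these changes was not tested. The contrast between neural and mesodermal types called 0 members in all 6 alternatives, but could not be estimated for 8 of the 38. The share of cells with a posterior UMI moved with depth. Thinned to 2000 UMIs it was 14.6% in Ependymal Cell, 35.9% in Mesodermal Progenitor and 18.4% in Neuronal Progenitor. Without thinning it was 27.7% in Ependymal Cell, 27.8% in Epithelial Cell, 13.2% in Erythroblast, 23.7% in Hematoendothelial Progenitor/Endothelium and 26.6% in Neuronal Progenitor. The mean paralogue number moved beyond its spread in 26 of 120 alternatives, in each case when 1 cluster was taken alone. Hoxb alone gave 5.36 in CNS Neuron, 5.49 in Neuroectoderm/Glia, 5.35 in Neuronal Progenitor, 5.98 in Ependymal Cell, 5.38 in Epithelial Cell, 4.41 in Chondrocyte, 4.27 in Gut Mesenchyme/Amniotic Mesoderm, 4.29 in Mesodermal Progenitor, 4.97 in Myoblast/Cardiomyocyte, 5.14 in Hematoendothelial Progenitor/Endothelium and 3.76 in Erythroblast. Hoxd alone gave, for the first 10 of these types, 6.33, 6.51, 6.77, 8.65, 9.08, 8.15, 9.75, 10.2, 10.2 and 8.17. Hoxc alone gave 6.86 in CNS Neuron, 7.07 in Neuroectoderm/Glia, 7.35 in Neuronal Progenitor and 7.18 in Chondrocyte, and Hoxa alone gave 6.59 in CNS Neuron. No paired analysis was possible because the suspensions of the generations share no embryo or number. Low counts of groups 12 and 13 in F1 suspensions and of all members in blood cells limit what depth can show.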

Other observations

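Cells with a Hoxb1 UMI, chosen after values were seen and not thinned, were described by their other transcripts. In CNS Neuron, Pax2, a factor of inhibitory interneurons in the dorsal cord and hindbrain, was at 1161, 1020, 642 and 970 CPM in the 65 cells with Hoxb1 and at 92.4, 217, 113 and 227 in the 467 without. Hoxb9, a trunk gene, was at 852, 859, 418 and 912 with and at 148, 157, 98.7 and 163 without. Lhx1 and Lhx5, of interneurons, were at 428 and 411 CPM with and 177 and 173 without, whereas Isl1, of motor and sensory neurons, was at 117 against 278 and Pax3 at 9.38 against 176. In Neuroectoderm/Glia, 39 cells with Hoxb1 had Pax2 at 495 against 149 and Hoxb9 at 743 against 136 CPM.

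Cells with a Hoxa13 or Hoxd13 UMI were described in the same way. In Mesodermal Progenitor the limb list was at 1541, 1668, 1417 and 1230 CPM in the 72 such cells and at 1110, 1036, 970 and 1042 in the 424 others. In Myoblast/Cardiomyocyte it was at 1130 in 120 cells and 717 in the rest, while skeletal muscle markers were at 97.1 and 340. In Gut Mesenchyme/Amniotic Mesoderm cells with such a UMI the limb list was at 1191, 1178, 190 and 335 CPM. These values rest on 50, 30, 1 and 7 cells. In the other cells of the type it was at 977, 888, 730 and 874, so both F1 suspensions went the other way from the founders. Cartilage markers were at 1327 in the 88 cells of this type with such a UMI, against 602 in its others. They were at 236 against 552 in Chondrocyte, 399 against 469 in Mesodermal Progenitor and 128 against 227 in Myoblast/Cardiomyocyte. F1_mix went the other way in Mesodermal Progenitor, at 474 against 427. So did F1_1 in Gut Mesenchyme/Amniotic Mesoderm, at 63.4 in its 1 cell against 529.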
